A study of Homo sapiens with 2 samples.

Results

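The 43 genes described here encode the growth pathway that runs from phosphoinositide 3-kinase (PI3K) through the kinase AKT to mTOR, together with the AMP-activated kinase AMPK and the kinases that switch it on. They were chosen by name, and all 43 were found among the 20289 genes of the deposited table. By role, 33 belong to the growth arm, 7 of which are its brakes, and 10 belong to the AMPK arm. The RNA came from MDA-MB-231, an established human cell line of triple-negative breast cancer. Cells were given an siRNA against the long non-coding RNA USP30-AS1 (knockdown, 1 library) or a negative control siRNA (control, 1 library). The question was how gene expression differs when USP30-AS1 is targeted. The level of the USP30-AS1 transcript is not analysed here, and the depth of its silencing is therefore unknown in what follows.

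In this pathway, growth factor receptors recruit PI3K, whose lipid product brings the kinases PDK1 and AKT together at the membrane. AKT relieves the block that the TSC1 and TSC2 proteins place on the GTPase RHEB, and RHEB, together with Rag GTPases that sense amino acids at the lysosome, turns on mTOR complex 1, which drives protein synthesis through the S6 kinases. AMPK works against this arm: when energy runs low, the kinase LKB1 phosphorylates it, and AMPK in turn acts on TSC2 and on raptor to slow mTOR complex 1. Much of this control lies in phosphorylation, which RNA levels do not measure.

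The table names its knockdown column by a number, and it was taken as the knockdown because the table's title pairs those cells with the control and only the other column carries the control's name. Library totals were 19569214 counts in the knockdown and 23287817 in the control library. The label of the line was checked against its markers. CD44 stood at 142 FPKM in the knockdown and 58.7 FPKM in the control library. ZEB1 was also present, at 16.1 FPKM in the knockdown and 23.1 FPKM in the control library. The mesenchymal gene VIM stood at 1190 FPKM in the knockdown and 840 FPKM in the control library, the estrogen receptor gene ESR1 at 0.12 FPKM in the knockdown and 0.07 FPKM in the control library, and the progesterone receptor gene PGR had 0 counts in both. ERBB2 mRNA was present, at 19.3 FPKM in the knockdown and 16.3 FPKM in the control library. The leukocyte marker PTPRC had 0 counts in the knockdown and 2 in the control library. The fibroblast marker COL1A1 was not absent, at 4.06 FPKM in the knockdown and 2.62 FPKM in the control library. Nor was the endothelial marker PECAM1, at 1.09 FPKM in the knockdown and 1.66 FPKM in the control library. FPKM is the authors' count per length and depth, and serves below to compare levels between genes. Differences are given as a log2 ratio, knockdown over control, of counts scaled to library size and by TMM factors (CPM), with 0.5 CPM added to both, or as a fold of the scaled counts. With 1 library per group there is no replicate check, so no difference below has a test. Intervals in parentheses after a fold are 95% counting intervals, which cover counting error only and say nothing of the spread between replicate samples. Bulk RNA cannot tell a change in the share of cells that express a gene from a change in RNA per cell.

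Most of the pathway had similar RNA levels in both libraries, and 4 genes stood apart. SGK1, a kinase related to AKT, was the only member at least 2-fold higher in the knockdown library, and PIK3R2, a regulatory subunit of PI3K, the only one at least 2-fold lower. TSC2, a brake of mTOR complex 1, and PRKAA1, a catalytic subunit of AMPK, were between 1.5-fold and 2-fold lower. The mTOR inhibitor DEPTOR also passed 1.5-fold upward at low counts. The other 38 members lay within 1.5-fold. A difference of at least 2-fold was thus seen in 2 of 43 members, beside 3.16% of the 11530 genes compared (1 member higher, beside 1.55%, and 1 lower, beside 1.6%). At least 1.5-fold higher were 2 members, beside 6.1% of all compared genes, and at least 1.5-fold lower were 3, beside 7.04%. With 43 members, 1 gene is a large step in such a share, and the members' counts are close to the shares over all genes. The counting interval excluded a fold of 1 in 30 of 43 members, beside 64.5% of all compared genes, so most differences here exceed counting error while the spread between replicate samples was not measured.

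**Figure D1:**
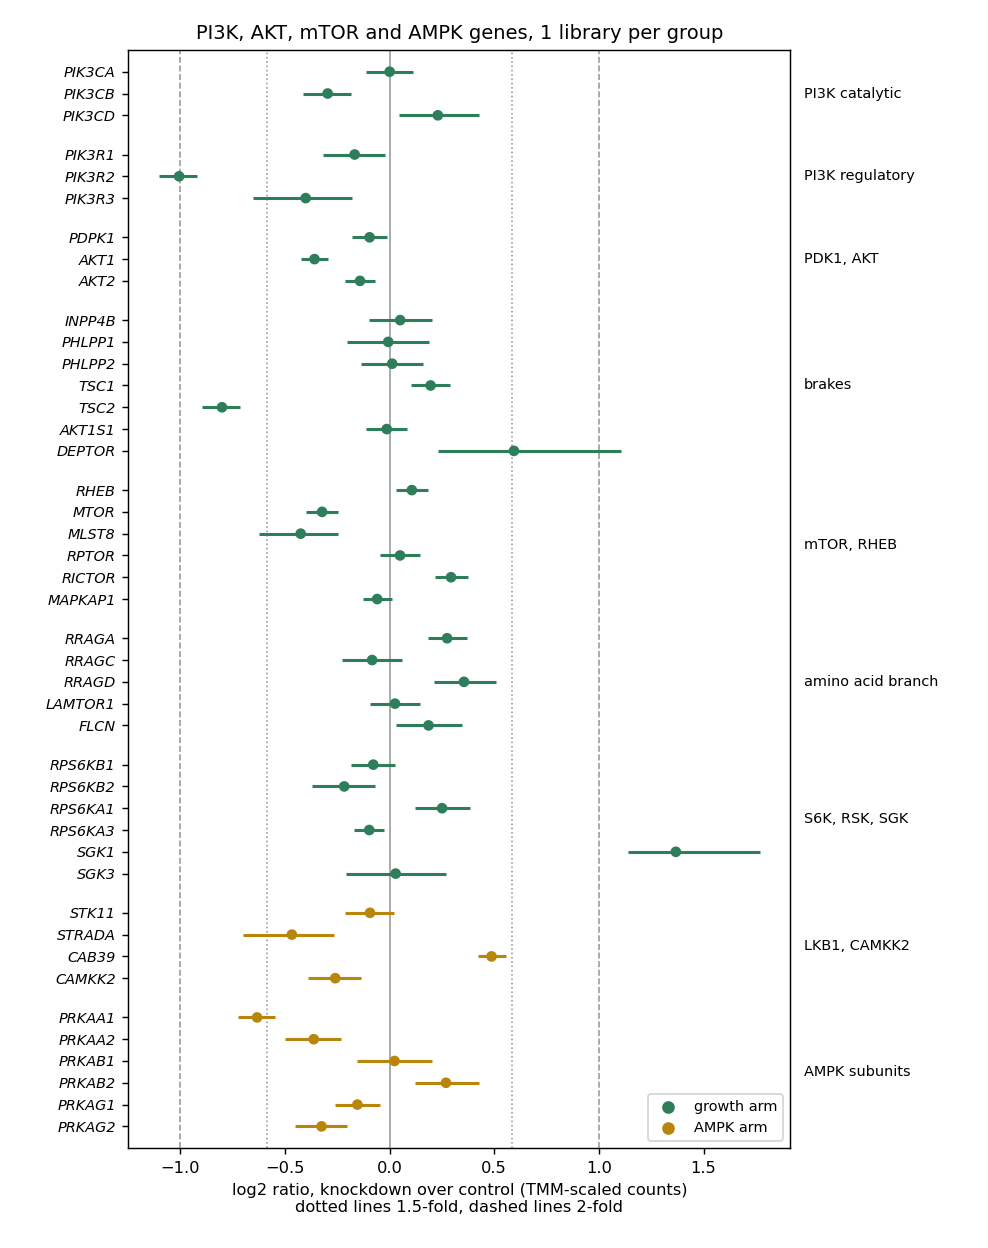
Log2 ratio (knockdown over control, TMM-scaled counts) of each of the 43 members, grouped by role, with 95% counting intervals as bars. Growth arm genes are green and AMPK arm genes are gold, dotted lines mark 1.5-fold and dashed lines 2-fold. SGK1 at 1.37 lies furthest to the right, and PIK3R2 at -1.01, TSC2 at -0.80 and PRKAA1 at -0.63 furthest to the left.

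The catalytic subunits of class IA PI3K, which make the lipid signal, were close to level. PIK3CA, which encodes the alpha isoform, had 1173 counts in the knockdown and 1444 in the control library, which is the same level after scaling (log2 ratio -0.00013, interval of the fold 0.925 to 1.08). PIK3CB, the beta isoform, had 1011 (knockdown) and 1531 (control) counts and was 1.23-fold lower (1.14 to 1.33). PIK3CD, the delta isoform best known from leukocytes, was the least abundant at 4.16 FPKM in the knockdown and 3.79 FPKM in the control library, and was 1.18-fold higher (1.03 to 1.34). The 3 isoforms thus went different ways by small amounts. In PIK3CA, 35.8% of the exonic bases are shared with KCNMB3 on the other strand. KCNMB3 had 21 counts in the knockdown and 38 in the control library.

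The regulatory subunits, which hold the catalytic subunits in check and bring them to receptors, showed the clearest difference in the PI3K group. PIK3R2 (ENSG00000105647, chromosome 19, 18153118 to 18170540, plus strand, GRCh38) had 1324 counts in the knockdown and 3286 in the control library. That is 2.02-fold lower (1.89 to 2.15), or 17.4 FPKM in the knockdown beside 38.7 FPKM in the control library, and 1.56% of all compared genes had a lower ratio. The annotation places another protein-coding gene, AC007192.1, over 87.2% of its exonic bases on the same strand. Reads from the shared bases cannot be told apart by position, and the PIK3R2 counts are not whole numbers. AC007192.1 had 34 counts in the knockdown and 32 in the control library. PIK3R3 had 240 (knockdown) and 394 (control) counts and was 1.33-fold lower (1.13 to 1.57). It shares 17.4% of its exonic bases with AL358075.4 on the same strand, and its counts are not whole numbers. AL358075.4 had 4 counts in the knockdown and 0 in the control library. PIK3R1, the most studied of the regulatory subunits, had 650 (knockdown) and 900 (control) counts. Its log2 ratio was -0.17 in counts but 0.21 in FPKM, so its direction depends on the unit.

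The make-up of the regulatory pool differed. By FPKM, PIK3R2 supplied 60.3% of the regulatory subunit RNA in the knockdown and 77.4% in the control library, while PIK3R1 supplied 31.7% in the knockdown and 15.8% in the control library. The summed FPKM of the 3 regulatory genes was 28.86 in the knockdown and 49.99 in the control library, and that of the 3 catalytic genes 28.4 in the knockdown and 31.8 in the control library. Catalytic over regulatory RNA was therefore 0.983 in the knockdown and 0.636 in the control library. The PIK3R1 share rests in part on its FPKM, which differs from its counts as described.

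Of the kinases that act on the PI3K lipid, AKT1 and AKT2 were both abundant. AKT1 had 3173 counts in the knockdown and 5014 in the control library and was 1.28-fold lower (1.23 to 1.34). AKT2 had 2862 (knockdown) and 3888 (control) counts and was 1.10-fold lower (1.05 to 1.16). AKT1 made up 49.9% of the summed FPKM of this pair in the knockdown and 54.6% in the control library. PDPK1, which encodes the kinase PDK1 that phosphorylates AKT, had 1997 (knockdown) and 2628 (control) counts and was 1.07-fold lower (1.01 to 1.13). All 3 of these kinase genes lay below 0, each by less than 1.5-fold. With GC and length trends taken out, AKT1 lay at -0.29, AKT2 at -0.04 and PDPK1 at -0.007.

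**Figure D2:**
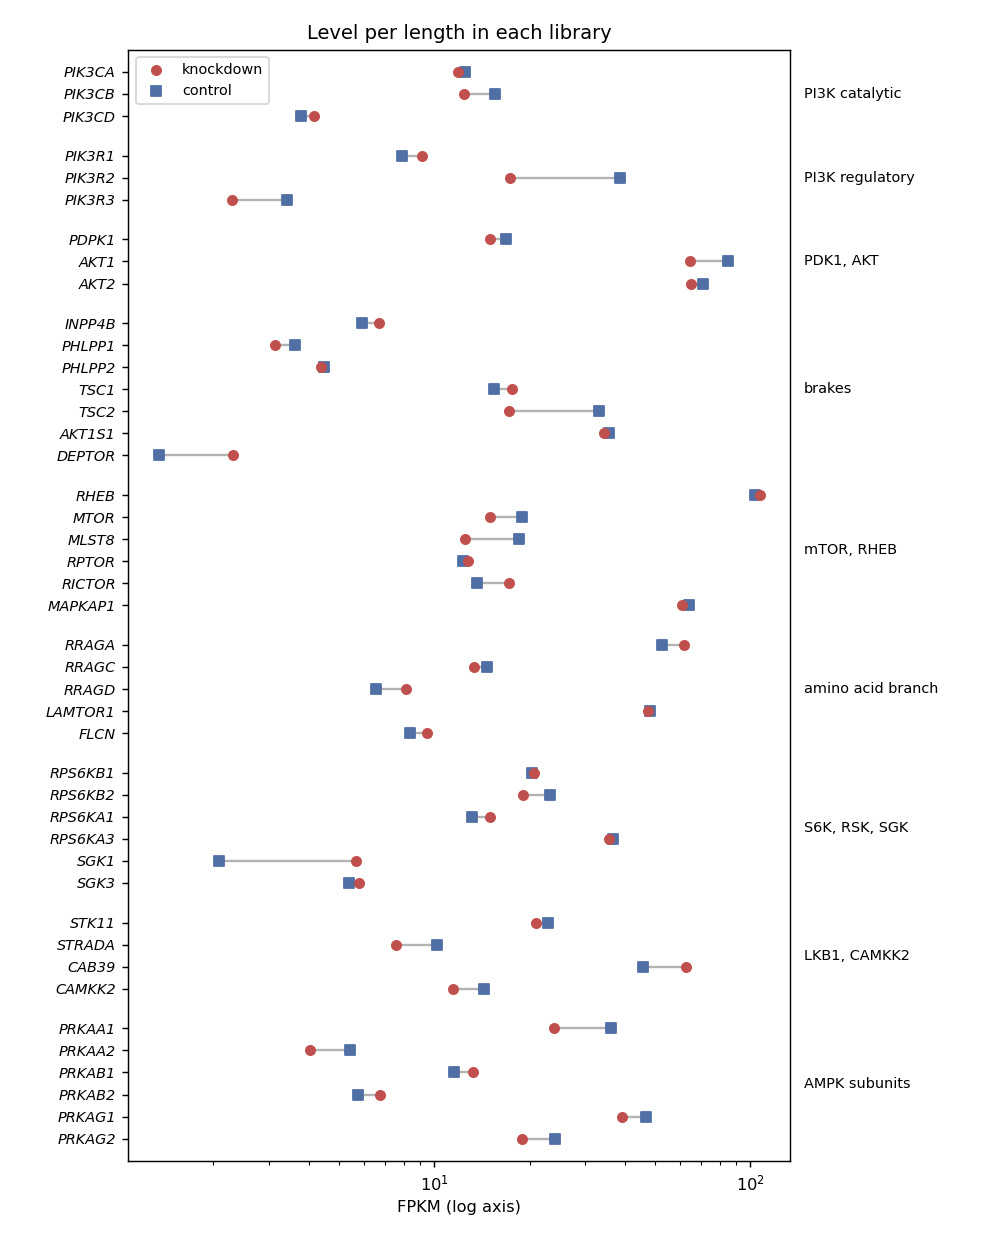
Level per length (FPKM, log axis) of each member in the knockdown library (red circles) and the control library (blue squares), grouped by role, with 1 library each. RHEB at 107 FPKM in the knockdown and 103 FPKM in the control library is the most abundant member, and DEPTOR at 2.30 FPKM in the knockdown and 1.34 FPKM in the control library is among the least abundant.

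Among the brakes, TSC2 stood apart. TSC2 (ENSG00000103197, chromosome 16, 2047465 to 2089487, plus strand), whose protein is the part of the TSC complex that switches RHEB off, had 1432 counts in the knockdown and 3081 in the control library, 1.75-fold lower (1.64 to 1.86), and 3.17% of all compared genes had a lower ratio. In FPKM its log2 ratio was -0.94, larger than the -0.80 in counts, and with GC and length trends taken out it was smaller, at -0.67. Its partner TSC1, which stabilizes TSC2, had 1837 (knockdown) and 1973 (control) counts and was 1.15-fold higher (1.07 to 1.22). The 2 genes of this complex thus differed in opposite directions, and TSC1 over TSC2 by FPKM was 1.02 in the knockdown and 0.467 in the control library. TSC2 shares 778 exonic bases (3.96% of its own) with PKD1 and 402 (2.05%) with NTHL1, both on the other strand. PKD1 had 2056 counts in the knockdown and 3305 in the control library (log2 ratio -0.38), and NTHL1 had 197 (knockdown) and 234 (control) counts (0.05). No source used here gives the strand setting of the counting, so reads from the shared bases cannot be told apart.

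The other brakes were level or higher in counts. DEPTOR, which binds mTOR and inhibits it, had 103 counts in the knockdown and 80 in the control library, 1.58-fold higher (1.17 to 2.15). It has the fewest counts of all members, and the interval is wide. AKT1S1, which encodes the raptor-bound inhibitor PRAS40, lay at a log2 ratio of -0.01 (1498 counts in the knockdown, 1862 in the control library). The AKT phosphatases PHLPP1 and PHLPP2 lay at -0.01 and 0.01, and INPP4B, a phosphatase of a PI3K lipid product, at 0.05. In FPKM, PHLPP1 was lower, at -0.21, and INPP4B lay at 0.18. The signs for PHLPP1 and PHLPP2 changed with the scaling or unit, and those for PHLPP1 and AKT1S1 with GC and length trends taken out. The intervals of these 4 folds all include 1. Over the 7 brakes the median was 0.01.

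The mTOR complexes differed in their parts. RHEB, the GTPase that activates complex 1, had 2613 counts in the knockdown and 2988 in the control library and was 1.08-fold higher (1.02 to 1.13). MTOR, the kinase itself, had 2345 (knockdown) and 3614 (control) counts and was 1.25-fold lower (1.19 to 1.32). MLST8, a subunit of both complexes, had 369 (knockdown) and 614 (control) counts and was 1.35-fold lower (1.19 to 1.54). The subunits particular to one complex lay near 0 or above it. RPTOR, which encodes raptor and defines complex 1, had 1639 (knockdown) and 1949 (control) counts and lay at a log2 ratio of 0.05. RICTOR, which defines complex 2, had 2684 (knockdown) and 2694 (control) counts and was 1.23-fold higher (1.16 to 1.29), and MAPKAP1, another subunit of complex 2, lay at -0.06. Raptor over rictor RNA by FPKM was 0.739 in the knockdown and 0.904 in the control library.

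The amino acid branch lay mostly above 0, with 4 of 5 members higher and a median log2 ratio of 0.19, beside a median of -0.0036 over all compared genes. RRAGD was 1.28-fold higher (1.16 to 1.42; 781 counts in the knockdown, 749 in the control library) and RRAGA 1.21-fold higher (1.14 to 1.29; 1930 counts in the knockdown, 1962 in the control library). These encode Rag GTPases, which bring mTOR complex 1 to the lysosome. FLCN, which acts on the partner Rag proteins to switch the branch on, was 1.14-fold higher (1.02 to 1.27). It shares 11.9% of its exonic bases with AC055811.2 on the same strand, and its counts are not whole numbers. AC055811.2 had 18 counts in the knockdown and 4 in the control library. LAMTOR1, which anchors the Rag scaffold to the lysosome, lay at 0.03, a sign that changed under 3 of the alternatives, library totals alone, FPKM and the removal of GC and length trends. RRAGC was the exception at -0.08. None reached 1.5-fold. RRAGD made up 37.8% of the summed FPKM of RRAGC and RRAGD in the knockdown and 30.8% in the control library.

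Among the kinases downstream of PDK1 and mTOR, SGK1 carried the largest difference of all 43 members. SGK1 (ENSG00000118515, chromosome 6, 134169246 to 134318112, minus strand), whose RNA is known to be induced rapidly by glucocorticoids and by stress, had 271 counts in the knockdown and 122 in the control library, 2.73-fold higher (2.20 to 3.41). Its ratio lay above that of 99.5% of all compared genes. Its level was modest, at 5.66 FPKM in the knockdown and 2.08 FPKM in the control library. SGK3, a paralogue in the same family, had 267 (knockdown) and 322 (control) counts and lay at 0.03, below 0 with library totals alone and with GC and length trends taken out. SGK1 made up 49.5% of the summed FPKM of the pair in the knockdown and 27.9% in the control library. The annotation has no other gene in the exons of SGK1. In SGK3, 6.04% of the exonic bases are shared with C8orf44 on the same strand, and its counts are not whole numbers.

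The S6 kinases and the RSK kinases were close to level. RPS6KB1, the main S6 kinase, had 1266 counts in the knockdown and 1646 in the control library, and its log2 ratio of -0.08 was 0.02 in FPKM. RPS6KB2 had 622 (knockdown) and 892 (control) counts and was 1.17-fold lower (1.05 to 1.29). RPS6KA1 and RPS6KA3 encode RSK kinases, which ERK and PDK1 activate. RPS6KA1 had 916 (knockdown) and 946 (control) counts and was 1.19-fold higher (1.09 to 1.31), and RPS6KA3 had 2779 (knockdown) and 3661 (control) counts and was 1.07-fold lower (1.02 to 1.12). In counts both S6 kinase genes thus lay below 0 and the RSK genes on either side of it, and none passed 1.5-fold.

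**Figure D3:**
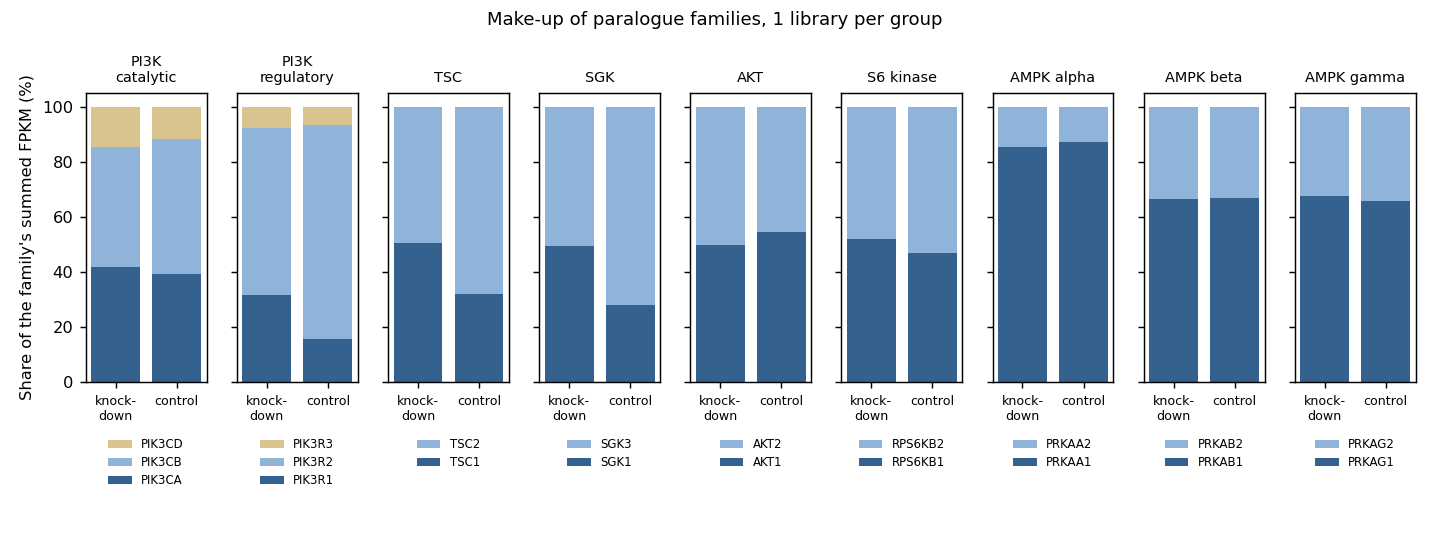
Share of each paralogue in the summed FPKM of its family (%), with the knockdown library left of the control library in each panel and 1 library each. TSC1 makes up 50.5% of the TSC pair in the knockdown library, beside 31.8% in the control library, while PRKAB1 makes up 66.4% of the AMPK beta pair in the knockdown and 66.7% in the control library.

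In the AMPK arm, the catalytic subunits were lower. PRKAA1 (ENSG00000132356, chromosome 5, 40759379 to 40798374, minus strand), the more abundant alpha subunit here, had 1647 counts in the knockdown and 3152 in the control library, 1.55-fold lower (1.46 to 1.65). It stood at 23.8 FPKM in the knockdown and 36.1 FPKM in the control library, and 5.89% of all compared genes had a lower ratio. PRKAA2, the other alpha subunit, had 742 (knockdown) and 1178 (control) counts and was 1.29-fold lower (1.18 to 1.42). Both thus differed in the same direction, and PRKAA1 made up 85.5% of the alpha FPKM in the knockdown, beside 87.0% in the control library.

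The other subunits did not move as one. Of the beta subunits, which hold the complex together, PRKAB2 was 1.21-fold higher (1.09 to 1.34; 702 counts in the knockdown, 715 in the control library) and PRKAB1 lay at 0.02 (465 counts in the knockdown, 563 in the control library), below 0 with library totals alone. Of the gamma subunits, which bind AMP, PRKAG2 was 1.26-fold lower (1.15 to 1.37; 870 counts in the knockdown, 1345 in the control library) and PRKAG1 1.11-fold lower (1.03 to 1.20; 1216 counts in the knockdown, 1667 in the control library). Alpha over beta RNA by summed FPKM was 1.40 in the knockdown and 2.40 in the control library. The smaller excess of alpha RNA came with lower alpha and slightly higher beta FPKM. The beta sum rests in part on the FPKM of PRKAB1, whose log2 ratio was 0.20 in FPKM beside 0.02 in counts.

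The kinases upstream of AMPK also went both ways. STK11, which encodes LKB1, had 1049 counts in the knockdown and 1379 in the control library and lay at -0.09 (1.07-fold lower, 0.985 to 1.16). Its pseudokinase partner STRADA had 277 (knockdown) and 476 (control) counts and was 1.40-fold lower (1.20 to 1.62). CAB39, the scaffold that locks LKB1 in its active form, had 3827 (knockdown) and 3358 (control) counts and was 1.40-fold higher (1.34 to 1.47), the highest ratio in the AMPK arm. CAMKK2, the calcium-dependent kinase that also activates AMPK, had 864 (knockdown) and 1276 (control) counts and was 1.20-fold lower (1.10 to 1.31). The 3 parts of the LKB1 complex were therefore lower, higher and near level. Their paralogues outside the member list showed the same split, with STRADB at -0.47 (697 counts in the knockdown, 1189 in the control library) and CAB39L at 0.52 (358 counts in the knockdown, 304 in the control library).

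Set side by side, the AMPK arm had a lower median than the growth arm. Of its 10 genes 7 lay below 0, with a median log2 ratio of -0.21 (95% interval over genes -0.47 to 0.27). Of the 33 growth arm genes 18 lay below 0, with a median of -0.01 (-0.10 to 0.05), and without the 7 brakes the median of the remaining 26 was -0.07. The difference of medians, growth arm minus AMPK arm, was 0.20. It was 0.08 when genes with either of the 3′ UTR words described next were left out. Those words were picked on these data. From the AMPK arm this took out PRKAA1, which carries both words, and PRKAA2 and PRKAG1. The latter genes carry only the high word yet lay at -0.36 and -0.15. The part of the words in the difference of the arms was not tested. Over all 43 members 18 lay above 0 (41.9%), beside 49.6% of all compared genes.

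**Figure D4:**
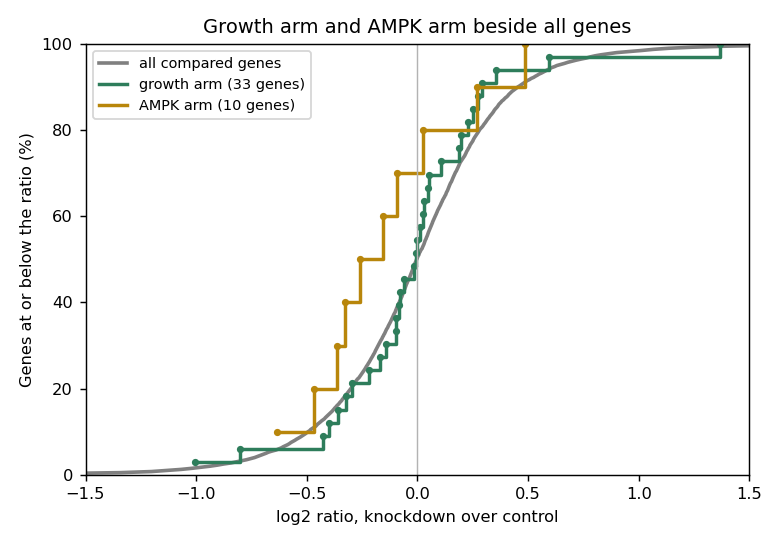
Cumulative share of genes (%) by log2 ratio, knockdown over control, for all 11530 compared genes (grey), the 33 growth arm genes (green) and the 10 AMPK arm genes (gold). The gold line runs left of the others between about -0.5 and 0, with 7 of 10 AMPK arm genes below 0. The growth arm crosses the middle of the plot near the grey line (median -0.01, beside -0.0036 for all genes), with SGK1 at the far right and PIK3R2 and TSC2 at the far left.

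Short words in the 3′ UTRs were read in the same genes. The sites shown are those of PRKAA1 and PIK3R2, the lower genes that carry a low word, of PIK3CB and TSC1, which carry it with ratios on either side of 0, and of RRAGD, the carrier with the highest ratio. The low word (AACTCCA or ACTCCAA) was picked on these data for its excess in lower genes, and the high word (CCTAAGA or CTAAGAA) for its excess in higher genes, so neither is independent support here. The words were searched on the transcript strand only. The sites below come from the longest 3′ UTR among the principal transcripts of each gene (GENCODE release 29, GRCh38). They read 5′ to 3′ on the transcript strand, written as DNA with the matched word in capitals.
PRKAA1 low word, chr5:40761235-40761258, minus strand: ctgaagttAACTCCAAatttcttt
PRKAA1 low word, chr5:40759828-40759850, minus strand: ctgaaataAACTCCAttgctttt
PRKAA1 low word, chr5:40759665-40759687, minus strand: agatgtggAACTCCAtggatctg
PRKAA1 low word, chr5:40759385-40759407, minus strand: taaagaaaAACTCCAtttatcat
PRKAA1 high word, chr5:40761043-40761065, minus strand: tggattttCCTAAGAtttctgat
PIK3R2 low word, chr19:18169810-18169832, plus strand: ccccacagACTCCAActtcccct
PIK3CB low word, chr3:138653952-138653975, minus strand: ggcactggAACTCCAAgaaatggc
PIK3CB low word, chr3:138654454-138654476, minus strand: atggaataAACTCCAgatctgaa
TSC1 low word, chr9:132893929-132893951, minus strand: ttgcaaagAACTCCAgagtcagt
TSC1 low word, chr9:132892955-132892977, minus strand: gggaacaaAACTCCAgactcttg
TSC1 high word, chr9:132894889-132894912, minus strand: gctagaagCCTAAGAActgtggtc
RRAGD high word, chr6:89366595-89366618, minus strand: cagagcctCCTAAGAAcatcaaag

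All 43 members have an annotated 3′ UTR. The low word occurs in 8 of them (18.6%), beside 16.7% of 11342 compared genes, and the high word in 9 (20.9%), beside 17.1%, so the words are about as common here as elsewhere. The 3′ UTRs of the members have a median of 1493 bases, beside 1175 over all compared genes. The 4 members with the low word alone were PIK3R2 (-1.01), PIK3CB (-0.30), RRAGC (-0.08) and SGK3 (0.03). The 4 with both were PRKAA1 (-0.63), RPS6KA3 (-0.10), INPP4B (0.05) and TSC1 (0.20). The 5 with the high word alone were PRKAA2 (-0.36), PRKAG1 (-0.15), PIK3CA (-0.00013), RICTOR (0.29) and RRAGD (0.36). Carriers therefore lay on both sides of 0, and TSC1, which was higher, carries 2 low word sites and 1 high word site. TSC2, whose 3′ UTR has 110 bases, SGK1 and DEPTOR carry neither word. The part of these words in the ratios was not tested.

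**Figure D5:**
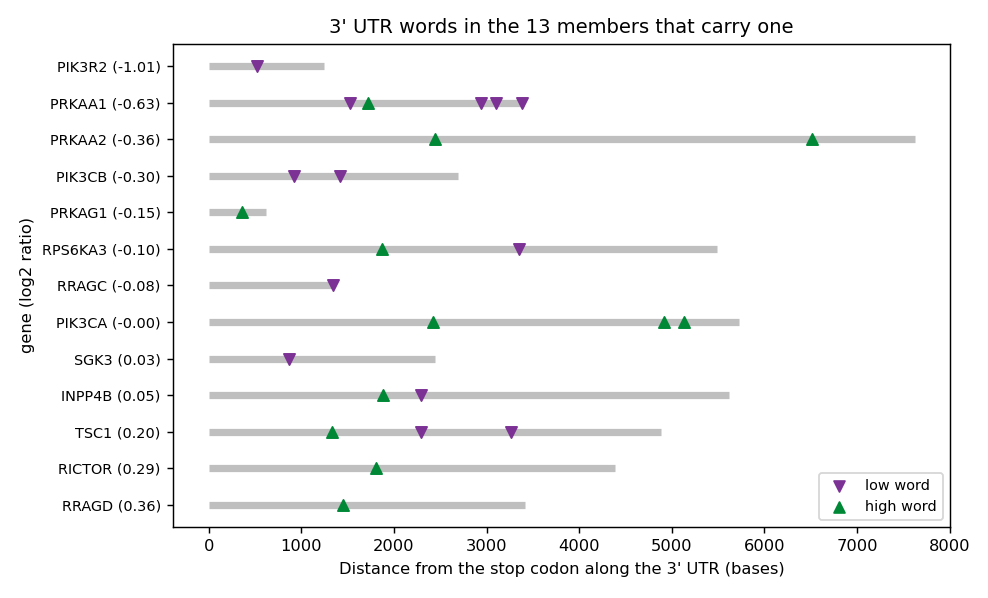
Positions of the low word (purple) and the high word (green) along the 3′ UTR of the 13 members that carry one, in bases from the stop codon, with genes ordered by log2 ratio from the lowest at the top. PRKAA1 carries 4 low word sites and PIK3R2 carries 1 in a 3′ UTR of 1246 bases, while TSC1, with 2 low word sites and 1 high word site, has a ratio above 0.

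Beyond the members, 11 lists of other genes of the pathway were read the same way. Of their 143 compared genes 4 passed 1.5-fold upward and 7 downward, beside 6.1% and 7.04% of all compared genes, and 1 of these 7 passed 2-fold, beside 1.6% lower by that much over all genes. The median over these lists was 0.01.

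That gene was TXNIP, an inhibitor of thioredoxin and of glucose uptake whose protein AMPK marks for removal, on the list of FOXO targets. It had 740 counts in the knockdown and 2973 in the control library, 3.26-fold lower (3.01 to 3.54). Other FOXO targets went both ways. RBL2, a pocket protein that restrains the cell cycle, lay at -0.70, and the peroxide-degrading enzyme CAT at 0.59. Of the 13 compared 5 lay above 0. The transcription factor genes FOXO3 and FOXO1, read among the AKT substrates, were lower, with FOXO3 at -0.55 (818 counts in the knockdown, 1482 in the control library) and FOXO1 at -0.46 (335 counts in the knockdown, 573 in the control library), both within 1.5-fold.

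Among regulators and effectors of mTOR, DDIT4, a stress-induced inhibitor of mTOR complex 1, had 2225 counts in the knockdown and 4606 in the control library and was 1.68-fold lower (1.60 to 1.77). RHEBL1, a relative of RHEB, lay at 0.76 with 66 (knockdown) and 43 (control) counts. EIF4EBP2, a repressor of translation that mTOR complex 1 inactivates, had 1542 (knockdown) and 3410 (control) counts and was 1.80-fold lower (1.69 to 1.91). Its 3′ UTR carries both words, as does that of RBL2. The 3′ UTRs of TXNIP and DDIT4, which were also lower, carry neither word. The part of the words in these ratios was not tested. TFE3, MITF and TFEB, related transcription factors that mTOR complex 1 keeps out of the nucleus, lay at 0.45, 0.45 and 0.41, TFEB with 86 (knockdown) and 77 (control) counts. Of 17 compared effectors 10 lay above 0, with a median of 0.02.

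The other amino acid sensing genes had 15 of 25 compared members above 0 and a median of 0.10. SLC38A9, a lysosomal arginine sensor, was 1.62-fold higher (1.43 to 1.84; 574 counts in the knockdown, 437 in the control library). SESN3, a sestrin that restrains mTOR complex 1, had 560 (knockdown) and 1037 (control) counts and was 1.504-fold lower (1.36 to 1.67). Its log2 ratio of -0.58, with 0.5 CPM added, lay just short of 1.5-fold. WDR24, a part of a complex that relays amino acid levels, lay at -0.50.

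Upstream of PI3K, the receptor adaptors held 6 of 10 compared genes below 0, with a median of -0.11. FRS2, an adaptor of fibroblast growth factor receptors, had 663 counts in the knockdown and 1543 in the control library and was 1.89-fold lower (1.73 to 2.07), and its 3′ UTR carries both words. CBLB, a ubiquitin ligase that restrains PI3K signalling, was 1.61-fold lower (1.37 to 1.89; log2 ratio -0.67 in counts and -1.34 in FPKM), and IRS2, an adaptor of the insulin receptor, lay at -0.33. Other phosphoinositide phosphatases had a median of -0.22 with 6 of 8 below 0, and none reached 1.5-fold. PI3K genes of other classes had a median of 0.06, with PIK3CG highest at 0.51.

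Lists around AKT and AMPK were also near level. AKT substrates and binders lay at a median of 0.12 with 9 of 15 above 0, and TRIB1, a pseudokinase scaffold, was 1.51-fold higher (1.37 to 1.67). Other AGC kinases lay at 0.13, with 9 of 12 above 0 and PRKCZ, an atypical protein kinase C, 1.65-fold lower (631 counts in the knockdown, 1281 in the control library). Relatives and kinases of AMPK lay at -0.17 with 9 of 14 below 0, and AMPK substrates at -0.05 with 10 of 19 below 0. None of the genes on these AMPK lists reached 1.5-fold, and the furthest was PFKFB3, an activator of glycolysis, at 0.55.

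The pathway labels of the deposited annotation were read with the members left out. In the AMPK signalling pathway 28 of 72 other genes lay above 0 (38.9%), with a median of -0.08. In the mTOR signalling pathway 50 of 92 did (54.3%, median 0.03), and in the PI3K-Akt pathway 101 of 186 (54.3%, median 0.03). Of these other genes, 4 of 72 were at least 1.5-fold higher and 3 lower in the AMPK pathway, 5 of 92 higher and 7 lower in the mTOR pathway, and 21 of 186 higher and 18 lower in the PI3K-Akt pathway, beside 6.1% higher and 7.04% lower over all compared genes. The pathways share genes and were not tested against each other.

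Of the 43 members, 29 have an FDR under 0.05 in the authors' deposited table, beside 58.7% of all compared genes. Higher with such an FDR were 10 of the 43 members, beside 25.8% of all compared genes, and lower were 19 of the 43, beside 32.9%. That test is not stated, and no replicate could enter it.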

How the data were processed

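Poly(A) RNA was sequenced from 1 knockdown and 1 control library, per the labels' protocols (Trizol, oligo(dT) beads, NEBNext Ultra kit). Build GRCh38 and the tools HISAT2, RSEM, StringTie 1.3.1 and fastp 0.18.0 appear in the submitters' processing notes. What each did, which annotation was used and whether counting used strand are not given in the sources used here. Per the file headers, the deposited table holds counts and FPKM. The deposited counts are taken as estimated counts, because RSEM is named and 11.4% (knockdown) and 12.0% (control) of the values are not whole. The authors normalized the FPKM for length and depth, per the file headers. The log2 fold changes in the authors' deposited table are ratios of FPKM with 0 replaced by 0.001. The authors' deposited p-values and FDR were counted only. The column Si-NC matches the control label, and Si-179 was taken as the knockdown by elimination.

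Counts were rounded and scaled by library total and TMM factors (0.983 knockdown, 1.02 control; edgeR 4.0.16, R 4.3.3). The log2 ratio is log2((knockdown CPM + 0.5)/(control CPM + 0.5)), which pulls low genes toward 0. Folds leave the 0.5 out. Genes with a mean of at least 50 counts were compared, which all 43 members passed. Counts past 1.5-fold and 2-fold use the log2 ratio. Folds carry exact (Clopper-Pearson) intervals, and medians exact binomial intervals over genes, which are not independent. No test was possible with 1 library per group. Annotation came from GENCODE release 29, to which 20171 gene identifiers matched and 118 did not, and 583 entries have no symbol. Python 3.11.15 was used, and the steps were checked on simulated counts. The members and lists were chosen with earlier results of these data known. All members are named; of each other list the 4 genes with the largest ratios could be named. Alternatives were DESeq2 1.42.0 size factors, library totals, other pseudocounts and floors, FPKM, removal of GC and length trends, and leaving out genes with the 3′ UTR words. Some genes of the pathway are not reported here.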

Additional observations from a re-analysis of the deposited data

How the results depend on the processing

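The signs of the AMPK arm median (-0.29 to -0.09) and of the difference of the arms (0.08 to 0.26) held under all 9 alternatives. Some of these could hardly change the difference of the arms. DESeq2 size factors and library totals shift all genes nearly alike, and all members already pass the floor that was removed. The growth arm median lay so near 0 that it was 0.0025 with DESeq2 size factors, beside -0.0069 in the main analysis. Members at least 1.5-fold higher numbered 1 with library totals alone, with a pseudocount of 2 CPM and with GC and length trends taken out, and 0 with a floor of 200 mean counts, which leaves out SGK1 and DEPTOR. Members at least 2-fold either way numbered 1 with DESeq2 size factors, a pseudocount of 2 CPM, a floor of 200 mean counts, GC and length trends removed, and without carriers of the 3′ UTR words. That last setting left 1 member at least 1.5-fold lower, TSC2. PIK3R2 crossed 2-fold with a log2 ratio between -1.15 and -0.91, and SGK1 stayed between 1.17 and 1.44 where it was compared. The cause of these shifts was not tested. In FPKM the signs of PIK3R1, RPS6KB1, PHLPP2 and LAMTOR1 changed. No paired analysis was possible because each group has 1 library. Depth limits DEPTOR and SGK1 most.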
